A study of Mus musculus with 6 samples.

Results

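Cathepsins are the main proteases of lysosomes, and 10 of their genes (Ctsa, Ctsb, Ctsc, Ctsd, Ctsf, Ctsh, Ctsk, Ctsl, Ctss and Ctsz) are described here in microglia, the resident macrophages of the brain. The members were chosen by gene name, and all 10 were found among the 15912 genes of the table. They were followed in hippocampal cells with few lipid droplets (BODIPY-low) and with many (BODIPY-high), with 3 libraries in each gate. Every library came from male C57BL/6 mice, 3 months old, that had received the inflammatory bacterial product lipopolysaccharide (LPS). LPS was injected into the peritoneum at 1 mg/kg for 4 days, the last dose preceded tissue collection by 24 h, and each sample pooled the hippocampi of 2 mice. The sort took about 10000 live CD11b+ CD45lo cells, which are mostly microglia, and the neutral-lipid dye BODIPY separated the gates. Mice without LPS were not analysed here, so the values compare lipid load among cells of LPS-treated mice only.

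Cathepsins are made as inactive proenzymes, tagged with mannose 6-phosphate in the Golgi, carried to endosomes and lysosomes by receptors for that tag, and cleaved there to the active form. Most members are cysteine proteases of the papain family. Ctsd is an aspartic protease and Ctsa a serine carboxypeptidase. In microglia they degrade engulfed material and trim antigens, and cystatins and some serpins restrain them. The values here are RNA levels, and enzyme activity was not measured.

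No cathepsin gene passed the test between gates. Ctsb had the largest difference, with a mean of 260986 ± 6815 normalized counts (SD, n = 3) in BODIPY-low and 319158 ± 25136 in BODIPY-high libraries, and the gates did not overlap. Ctss and Ctsh were lower in every BODIPY-high library than in every BODIPY-low library, and the other 6 tested members overlapped between gates. Over all tested genes the gates did not overlap in 10.4% in the higher and in 5.95% in the lower direction. A normalized count is a gene's read count divided by a size factor for its library. The test was limma on log2(normalized count + 1) over 12767 genes, with a call at a Benjamini-Hochberg adjusted p under 0.05. Unless stated otherwise, SEs and intervals below come from this fit, which did not pair libraries by their replicate number. Of all tested genes 2.05% were called in either direction, 2.03% higher and 0.0235% lower in BODIPY-high libraries, against 0 of 9 tested members. At an unadjusted limma p under 0.05 the share was 10.3% of all genes, again against 0 of 9 members.

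The 6 libraries held 34899413 to 39220494 reads assigned to genes. Summed over 10 microglial markers, among them Tmem119, P2ry12 and Csf1r, the level ran from 1786129 to 2637039 normalized counts, and none of these genes was at 0 in any library. All 10 had a negative log2 change, with a median of -0.20 and 0 limma calls. Markers of other cells were present as well. The 7 markers of choroid plexus epithelium, the secretory lining of the ventricles, summed to between 306.1 and 2292 normalized counts in BODIPY-low and between 39581 and 51909 in BODIPY-high libraries, and all 7 rose (limma); their most abundant gene was Enpp2, and Folr1 and Aqp1 were at 0 in at least 1 library. The 12 markers of border-associated macrophages, which line the meninges and vessels, summed to between 17574 and 24502 in BODIPY-low and between 43994 and 122302 in BODIPY-high libraries. Of these 12 genes 9 rose, the most abundant was Stab1, and none was at 0 in any library. Sums that did not overlap and were higher in BODIPY-high libraries were also found for astrocyte markers (3 of 7 tested rose, most abundant Slc1a3) and oligodendrocyte markers (1 of 6, Cnp). The same held for mural cell markers (1 of 3, Vtn), fibroblast markers (1 of 2, Col1a2) and dendritic cell markers (0 of 5, Itgax). Of these most abundant genes, Stab1, Slc1a3, Cnp and Col1a2 themselves overlapped between gates, and limma called only Enpp2 and Vtn. Slc1a3 had a log2 change of -0.04. The sums of endothelial, neuron, monocyte, neutrophil and T or NK cell markers overlapped between gates, with 0 limma calls. Among their genes Mmp9 (neutrophil), Snap25 and Tubb3 (neuron) were higher in BODIPY-high libraries without overlap. With the replicate number as a block limma called the neutrophil markers Mmp9 and Retnlg, and DESeq2 called Retnlg. The part of these cells in the cathepsin levels was not tested. In bulk samples, fewer cells of a type and less RNA per cell cannot be told apart.

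The 10 cathepsin genes took between 5.62 and 6.57% of the normalized counts of each library, a share that is not corrected for gene length. The 10 members summed to 6.09, 6.37 and 5.85% of all normalized counts in BODIPY-low libraries 1, 2 and 3, and to 6.34, 6.57 and 5.62% in BODIPY-high libraries 1, 2 and 3. The gates overlapped, and library 3 was the lowest of each. Without Ctsd the sum was 2.99 to 3.2% in BODIPY-low and 2.95 to 3.29% in BODIPY-high libraries. Ctsd supplied 49.5% of the sum in BODIPY-low and 49.2% in BODIPY-high libraries. Of the 10 members, 8 were among the 100 genes with the most normalized counts, a rank that is not corrected for gene length.

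**Figure D1:**
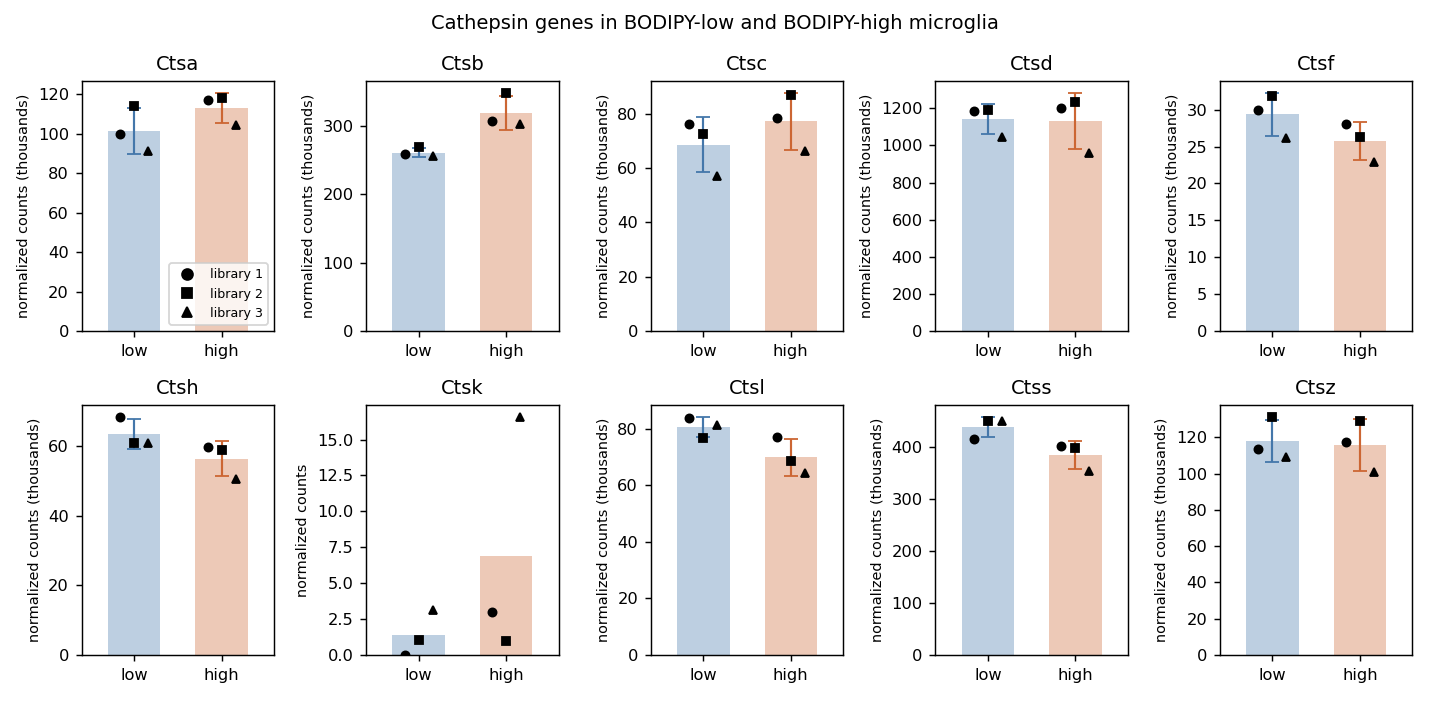
Normalized counts of the 10 cathepsin genes in each library, 1 panel per gene with its own axis from 0. Points are libraries, bars are gate means and error bars are the SD over 3 libraries (none for Ctsk, which had 0 to 18 reads per library). The points of the gates are apart for Ctsb (higher in BODIPY-high), Ctss and Ctsh (lower) under the deposited scaling.

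Levels of different genes can be compared only per length, and here each normalized count was divided by the gene's exon length in kilobases (kb, all annotated exons merged). The order in BODIPY-low libraries was Ctsd, Ctss, Ctsz, Ctsb, Ctsa, Ctsh, Ctsl, Ctsc, Ctsf and Ctsk. Ctsd had 485516 ± 35241 normalized counts per kb (SD, n = 3) in BODIPY-low and 481540 ± 63837 in BODIPY-high libraries. Ctss followed with 323195 ± 14595 and 283527 ± 19668 per kb. Both stood above all other members in every library, and Ctsz and Ctsb kept the third and the fourth place in both gates without overlapping their neighbours.

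Further down the order the neighbours were close. Ctsh, at 13574 to 15245 per kb, did not overlap Ctsl, at 11821 to 12933, in the BODIPY-low gate, whereas Ctsl overlapped Ctsc, at 9827 to 13122. In BODIPY-high libraries Ctsc, Ctsh and Ctsl came in that order, and each overlapped the next. Ctsf was the lowest of the abundant members, at 5823 ± 575 per kb in BODIPY-low libraries. With the length of the longest principal transcript in place of merged exons, the first 4 places were the same, and Ctsl went to the place below Ctsf, where its transcript measured 6.17 kb. The order below Ctsb therefore depended on the gene model.

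**Figure D2:**
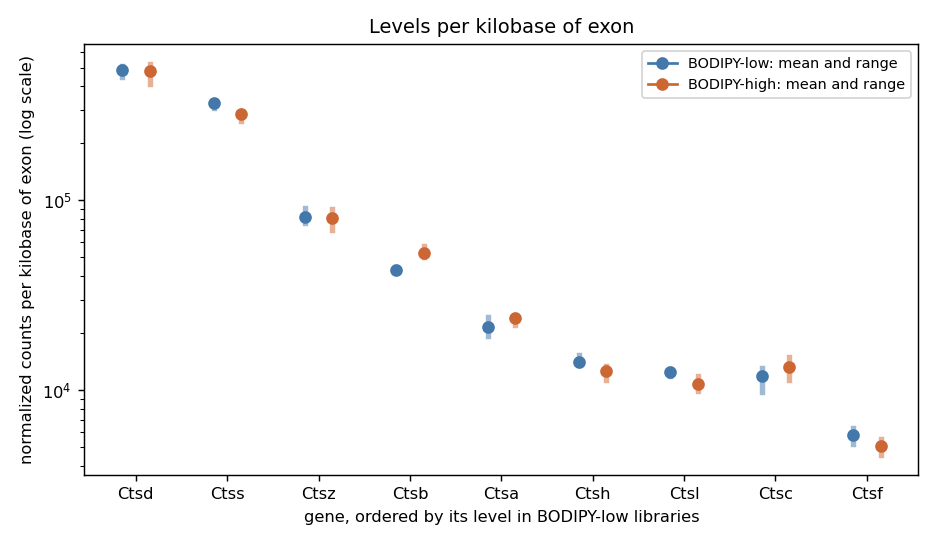
Level of each cathepsin gene except Ctsk per kilobase of merged exon, on a log axis. Points are gate means and bars the range over the libraries of a gate, with the gates in different colours. The ranges of Ctsd and Ctss lie above those of all other members shown.

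Ctsb, a cysteine protease that cuts within proteins and also removes dipeptides from their carboxyl end, lies at chr14:63122462-63145923 on the plus strand (mm10). It had 258846, 268614 and 255497 normalized counts in BODIPY-low libraries 1, 2 and 3, and 306973, 348064 and 302437 in BODIPY-high libraries 1, 2 and 3. All BODIPY-high libraries were above all BODIPY-low libraries, with BODIPY-high library 2 the highest. The log2 change was 0.29 (SE 0.14, 95% interval -0.02 to 0.60), with a limma adjusted p of 0.531. This interval covers folds from 0.985 to 1.51. Between libraries of the same number the BODIPY-high value was 1.19, 1.3 and 1.18 times the BODIPY-low value. The numbers pair the libraries in their measured profiles, and with the number as a block the limma adjusted p of Ctsb was 0.104, the smallest of the members in that fit. DESeq2 gave it an adjusted p of 0.0715, the smallest that any member had in any fit, and edgeR 0.274. The Fdft1 gene overlaps an end of Ctsb on the opposite strand, and its highest value in a library was 681 normalized counts.

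Ctss, an endopeptidase typical of antigen-presenting cells that stays active at neutral pH and cleaves the invariant chain, lies at chr3:95526786-95556403 on the plus strand. Its values were 416028, 449595 and 451074 normalized counts in BODIPY-low libraries, and 402307, 398516 and 354266 in BODIPY-high libraries. The gates did not overlap, and BODIPY-high library 3 was the lowest. The means were 438899 ± 19821 and 385030 ± 26710 (SD, n = 3), with a log2 change of -0.19 (SE 0.15, 95% interval -0.53 to 0.15) and a limma adjusted p of 0.776. Without both libraries of number 3 the change was -0.111. The ratio within a number was 0.967, 0.886 and 0.785.

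Ctsb and Ctss thus stood on opposite sides, and their ratio does not depend on how the libraries are scaled. It was 0.622, 0.597 and 0.566 in BODIPY-low libraries and 0.763, 0.873 and 0.854 in BODIPY-high libraries. The gates did not overlap, with means of 0.595 ± 0.028 and 0.83 ± 0.059 (SD, n = 3). This ratio was chosen after the values were seen and was given no test. Of the summed cathepsin counts, Ctsb made up 11.3% ± 0.339 in BODIPY-low and 14% ± 1.05 in BODIPY-high libraries, and Ctss 19.1% ± 1.47 and 16.8% ± 0.668.

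Ctsl, an endopeptidase of broad specificity, lies at chr13:64359337-64370890 on the minus strand. It had 83924, 76704 and 81428 normalized counts in BODIPY-low libraries, and 77233, 68492 and 64381 in BODIPY-high libraries. The gates overlapped through BODIPY-low library 2 and BODIPY-high library 1. Its log2 change was -0.21 (SE 0.11, 95% interval -0.46 to 0.04), the largest negative value of the members, with a limma adjusted p of 0.607.

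Ctsf, a lysosomal endopeptidase with a long cystatin-like propeptide, lies at chr19:4855130-4860918 on the plus strand. Its values were 30005, 31867 and 26183 normalized counts in BODIPY-low libraries, and 28015, 26243 and 22896 in BODIPY-high libraries. BODIPY-low library 3 lay within the range of the BODIPY-high gate. Its log2 change was -0.19 (SE 0.11, 95% interval -0.45 to 0.07) and the limma adjusted p was 0.667. Without BODIPY-high library 3 the change was -0.11.

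Ctsk, known as the collagen-degrading protease of osteoclasts, lies at chr3:95499256-95509362, next to Ctss. It was close to silent, with 0, 1 and 3 reads in BODIPY-low libraries and 3, 1 and 18 reads in BODIPY-high libraries. It did not reach 10 normalized counts in 3 libraries and was not tested. BODIPY-high library 3 held 18 of the 22 reads of its gate. Summed over each gate and corrected for depth, the ratio of BODIPY-high to BODIPY-low was 5.04 (exact 95% interval 1.71 to 20.1, counting error only). Without BODIPY-high library 3 there were 4 reads against 4, and the ratio was 1.41 (0.263 to 7.59).

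Among the exopeptidases, Ctsh is an aminopeptidase at chr9:90054152-90076089 on the plus strand. It had 68586, 61106 and 61069 normalized counts in BODIPY-low libraries, and 59961, 58871 and 50781 in BODIPY-high libraries. Here too the gates did not overlap, but BODIPY-high library 1 was close to BODIPY-low libraries 2 and 3. On the log2 scale the change was -0.17 (SE 0.11, 95% interval -0.42 to 0.08), with a limma adjusted p of 0.704. It was 0.0136 with libraries scaled to the mean log2 level of their microglial markers and -0.0958 without BODIPY-high library 3.

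Ctsc, also known as dipeptidyl peptidase 1, removes dipeptides from the amino end and activates the serine proteases of neutrophils and cytotoxic lymphocytes. It lies at chr7:88278085-88310888 on the plus strand. The BODIPY-low libraries had 76212, 72472 and 57074 normalized counts and the BODIPY-high libraries 78495, 86795 and 66052. Library 3 was the lowest of each gate, and the gates overlapped. Within each number the BODIPY-high library was the higher, by ratios of 1.03, 1.2 and 1.16. The log2 change was 0.17 (SE 0.15, 95% interval -0.17 to 0.51), with a limma adjusted p of 0.807. Leaving out BODIPY-low library 3 gave 0.0442. Leaving out BODIPY-high library 2 gave 0.0813, and leaving out number 3 of that gate gave 0.278.

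Ctsz, a carboxypeptidase that removes single amino acids, lies at chr2:174427493-174439039 on the minus strand. Its values were 113512, 131353 and 109381 normalized counts in BODIPY-low libraries, and 117367, 129026 and 100664 in BODIPY-high libraries. Library 2 was the highest and library 3 the lowest of each gate, and the gates overlapped. The change on the log2 scale was -0.03 (SE 0.14, 95% interval -0.34 to 0.28), with a limma adjusted p of 0.974.

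Ctsd, the aspartic protease of the group, lies at chr7:142375911-142388038 on the minus strand. It had the highest mean normalized count of the table, not corrected for gene length, with 1186165, 1192335 and 1045847 normalized counts in BODIPY-low libraries, and 1203611, 1233054 and 959638 in BODIPY-high libraries. Libraries 1 and 2 of both gates lay close together, and library 3 was the lowest of each gate. The log2 change was -0.02 (SE 0.21, 95% interval -0.49 to 0.45), with a limma adjusted p of 0.99. This interval covers folds from 0.714 to 1.37. Ctsd changed sign when the libraries were scaled otherwise or some were left out, within -0.0843 to 0.167 over all settings.

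Ctsa, which besides its carboxypeptidase activity protects the lysosomal enzymes Glb1 and Neu1, lies at chr2:164832873-164841032 on the plus strand. It had 99514, 114020 and 90924 normalized counts in BODIPY-low libraries, and 116933, 117720 and 104256 in BODIPY-high libraries. The gates overlapped through BODIPY-low library 2 and BODIPY-high library 3. The log2 change was 0.16 (SE 0.13, 95% interval -0.13 to 0.44), with a limma adjusted p of 0.781. Leaving out BODIPY-low library 3 gave 0.0826, and leaving out number 2 of that gate gave 0.246. The 3 ratios within a number were 1.18, 1.03 and 1.15. Pltp and Neurl2 overlap exons of Ctsa on the opposite strand, and since the kits do not keep strand, reads there cannot be told apart by strand. Their highest values were 6207 and 60.1 normalized counts. Other genes overlap exons of Ctsc (Gm26522), Ctsd (Gm49369, same strand), Ctsl (Gm47123 and Gm49230) and Ctsz (Nelfcd, at most 2027.5 normalized counts). Whether reads in these overlaps were counted for the cathepsin genes was not tested.

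**Figure D3:**
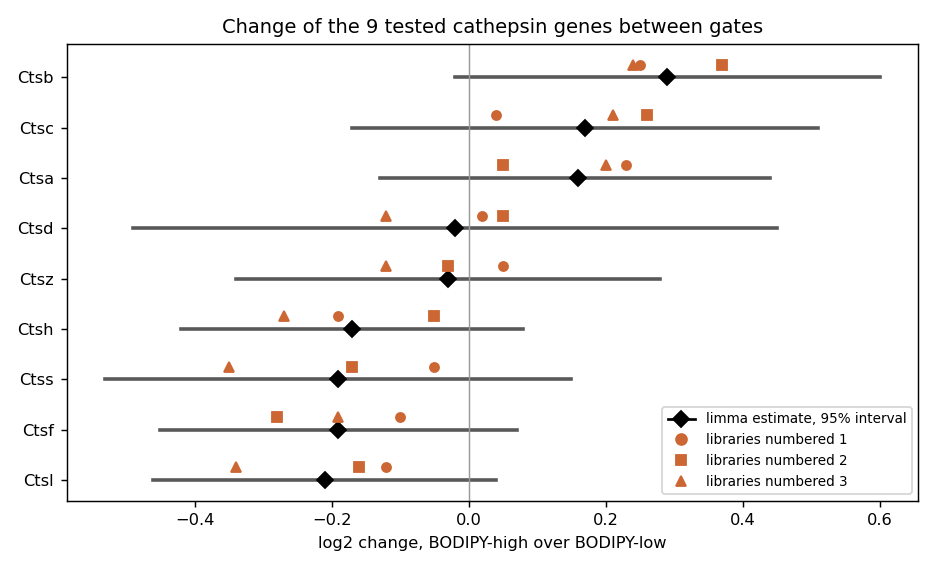
Log2 change of each tested cathepsin gene, BODIPY-high minus BODIPY-low, as points with 95% intervals from limma. All 9 intervals come from the fit of the gate alone, without pairing libraries by number, and include 0. With the number as a block, limma called 0 of 9 members and gave 5 an unadjusted p under 0.05. Ctsb is at the top of the range (0.29) and Ctsl at the bottom (-0.21).

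As a group, 3 of the 9 tested members had a positive and 6 a negative log2 change. Their median was -0.03, beside -0.004 over all tested genes, and their median absolute change was 0.17, beside 0.16. With libraries scaled to the mean log2 level of their microglial markers, a setting chosen after the data were seen, 6 were positive and 3 negative. That scaling moved the median of all genes to 0.180 and left Ctss, Ctsf and Ctsl at -0.00546, -0.00603 and -0.0225, whereas Ctsb was at 0.473 with a limma adjusted p of 0.0847. Under the deposited scaling and without a replicate block, the 95% intervals of the members ran from -0.53 to 0.60 on the log2 scale, or folds of 0.694 to 1.51. These intervals use limma's standard errors, which borrow from genes of similar level. From the spread of its own libraries alone the SE was 0.07 for Ctsb (limma 0.14), 0.07 for Ctss (0.15) and 0.13 for Ctsd (0.21). These were the members with the largest gaps. For the others the values were close, such as 0.11 for Ctsa (0.13), and limma's SE was the smaller for Ctsc (0.17, limma 0.15) and Ctsf (0.12, limma 0.11). Gates that did not overlap were found in 1 of 9 members in the higher and 2 of 9 in the lower direction, and in 10.4% and 5.95% of all tested genes. With the replicate number as a block, limma called 0 of 9 members, beside 4.83% of all genes. At an unadjusted p under 0.05 that fit gave 2 members higher (Ctsb and Ctsc) and 3 lower (Ctsf, Ctsh and Ctsl), beside 17.8% of all genes in either direction. edgeR called 0 of 9 members and 1.75% of all genes, and at an unadjusted p under 0.05 it gave 1 of 9 members and 10.1% of all genes. DESeq2 called 0 of 9 members and 3.89% of all genes, and at an unadjusted p under 0.05 it gave 3 of 9 members and 10.7% of all genes.

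**Figure D4:**
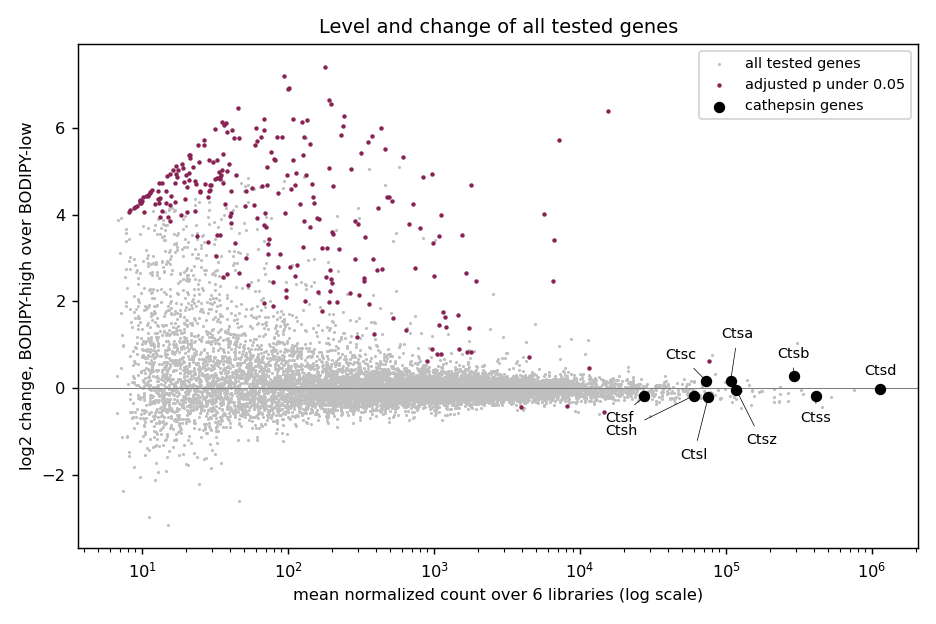
Log2 change between gates against the mean normalized count over 6 libraries (log axis) for all 12767 tested genes, with genes at an adjusted p under 0.05 in colour and the 9 tested cathepsin genes in black. The cathepsins are at the abundant end and within 0.29 of no change on the log2 scale.

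Many cathepsins were low in library 3. All 9 tested members had their lowest BODIPY-high value in library 3, and 7 of the 9, all but Ctsl and Ctss, had their lowest BODIPY-low value in library 3 as well. In BODIPY-high library 3, 6 of the 9 were the lowest of all 6 libraries. The median deviation of the 9 members from their own mean log2 value was -0.213 in that library, against 0.042 and 0.123 in BODIPY-high libraries 1 and 2. It was 0.067, 0.075 and -0.09 in BODIPY-low libraries 1, 2 and 3. The summed microglial markers were also lowest in BODIPY-high library 3, at 1786129 normalized counts, while border-associated macrophage markers were highest there, at 122302. Neutrophil markers, led by Ngp, were highest there too, at 196389, and lowest in library 1 of each gate, at 70875 and 81516. The part of these cells in the library pattern was not tested.

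**Figure D5:**
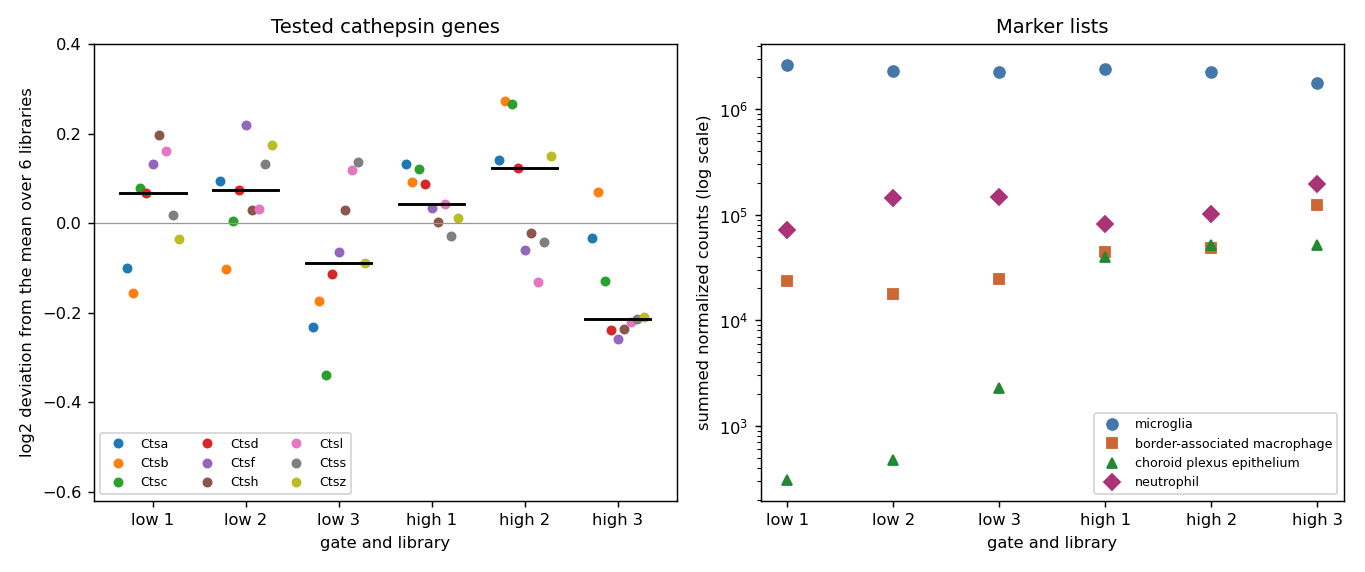
Left, deviation of each tested cathepsin gene from its own mean log2 level over 6 libraries, with dots for genes and a black bar for their median. Each gene has its lowest BODIPY-high value in library 3, where the median deviation was -0.213. Ctsb is the exception in staying above its mean there. Right, summed normalized counts of the microglia, border-associated macrophage, choroid plexus epithelium and neutrophil marker lists in each library, on a log axis.

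Ctsb was the tested member with the smallest p, and the genes outside the family whose log2 values followed it most closely over the 6 libraries were Ist1, Psmd2 and Wdr1. Pearson's r was 0.9953, 0.9901 and 0.9858, the highest of 10370 candidate genes, and describes 6 libraries without a test. Ist1 acts in endosomal membrane scission, Psmd2 is a proteasome subunit and Wdr1 helps to disassemble actin filaments. Psmd2 had 6642 to 6763 normalized counts in BODIPY-low and 7757 to 8709 in BODIPY-high libraries, with a log2 change of 0.28 and a limma adjusted p of 0.223. The changes of the others were smaller, with a log2 change of 0.08 for Ist1 (limma adjusted p 0.86) and 0.18 for Wdr1 (0.519). Ist1 had 3203 to 3267 normalized counts in BODIPY-low and 3343 to 3495 in BODIPY-high libraries.

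Promoters of lysosomal genes often hold an E-box, the letters CACGTG, which the MiT/TFE transcription factors bind, and the promoters were read to see which members have it. RefSeq promoters (GRCm38.p6, 250 bases before to 50 after a start) were found for 8 of the 10 members, all but Ctsb and Ctsh. CACGTG, on either strand, was in 4 of their 9 promoter entries (Ctsa, with 1 of its 2 entries, Ctsd, Ctsf and Ctsl) and in 7.15% of all 32851 promoter entries of that length. The longer form TCACGTGA, which contains the first, was in 2 of the 9 (Ctsa and Ctsd) and in 0.974% of all. GAGGAAGT, a PU.1 motif, was in 2 of the 9 (Ctsc and Ctss) and in 3.2% of all. A match describes letters and not binding. The windows around each E-box are shown 5′ to 3′ on the gene's strand, with CACGTG in capitals.
Ctsa, chr2:164833758-164833787, plus strand: tgtCACGTGatgcagatgctCACGTGacca
Ctsd, chr7:142388048-142388077, minus strand: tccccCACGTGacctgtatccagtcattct
Ctsd, chr7:142387908-142387937, minus strand: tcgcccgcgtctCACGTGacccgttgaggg
Ctsf, chr19:4855074-4855103, plus strand: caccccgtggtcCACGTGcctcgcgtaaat
Ctsl, chr13:64370739-64370768, minus strand: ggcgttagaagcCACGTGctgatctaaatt
Ctsa carries a pair of E-boxes across a second annotated start. The 4 genes with an E-box had log2 changes of 0.16 (Ctsa), -0.02 (Ctsd), -0.19 (Ctsf) and -0.21 (Ctsl). The limma interval of each included 0, and Ctsd changed sign in 6 of the other settings. Whether genes with an E-box share a direction of change was not tested.

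The MiT/TFE factors themselves gave 0 calls among 4 tested genes (limma, 0 at an unadjusted p under 0.05; edgeR 0, DESeq2 0), with a median log2 change of 0.02. Tfec had the smallest p, with 7.68, 18.6 and 17.9 normalized counts in BODIPY-low and 13, 46.9 and 76.3 in BODIPY-high libraries. The gates overlapped, and its limma adjusted p was 0.605.

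Genes that deliver cathepsins to lysosomes, the mannose 6-phosphate system, gave 0 calls of 9 (limma, 1 at an unadjusted p under 0.05; edgeR 0, DESeq2 0), with a median log2 change of 0.05. That gene was Gga2, an adaptor that sorts tagged enzymes at the Golgi. It had 1269, 1120 and 1424 normalized counts in BODIPY-low and 1655, 1672 and 1867 in BODIPY-high libraries. All BODIPY-high libraries were above the other gate, with a log2 change of 0.45 (SE 0.12) and a limma adjusted p of 0.157, which became 0.0303 with the replicate block.

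Among the cathepsin inhibitors 6 of 11 genes in the table were tested, and limma called 0, with 1 higher and 1 lower at an unadjusted p under 0.05 and a median log2 change of 0.20; edgeR called 0 and DESeq2 1. Whether each listed inhibitor acts on the members described here was not tested. Serpinb6a, a serpin, had 392.8, 377.5 and 509.6 normalized counts in BODIPY-low and 524.5, 649.1 and 1210 in BODIPY-high libraries. The gates did not overlap, and BODIPY-high library 3 was the highest. Its log2 change was 0.81 (SE 0.29), with a limma adjusted p of 0.333 and of 0.0255 with the replicate block. The gene called by DESeq2 was Cst3, or cystatin C, a secreted inhibitor of cysteine cathepsins, named after its values were seen. Its values were 456440, 528303 and 585672 in BODIPY-low and 402700, 356800 and 404387 in BODIPY-high libraries. The gates did not overlap, and the log2 change was -0.43 (SE 0.17), with a limma adjusted p of 0.389 and of 0.0513 with the replicate block.

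Substrates and partners gave no limma calls either. In class II antigen loading, where Ctss cuts the invariant chain Cd74, limma called 0 of 8 genes, with 2 lower at an unadjusted p under 0.05 and a median log2 change of 1.08; edgeR called 0 and DESeq2 1, H2-DMa. H2-DMa, a chain of the molecule that edits class II peptides, had 10043, 10713 and 9991 normalized counts in BODIPY-low and 8366, 8272 and 7866 in BODIPY-high libraries. Values of the gates were apart, with a log2 change of -0.33 (SE 0.08), a limma adjusted p of 0.108 and 0.0267 with the replicate block. That block also gave 4 genes higher, namely Cd74, H2-Aa, H2-Ab1 and H2-Eb1, which were named after their values were seen. Cd74 had 2910, 4769 and 7024 normalized counts in BODIPY-low and 4774, 9164 and 23309 in BODIPY-high libraries, with a limma adjusted p of 0.507 and of 0.00257 with the block. The gates overlapped, and BODIPY-high library 3 was the highest for Cd74. That library also had the highest sums of several marker lists, among them border-associated macrophage, neutrophil, monocyte and oligodendrocyte markers. The part of these cells in the level of Cd74 was not tested.

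Of the serine proteases that Ctsc activates, 2 of 4 in the table were tested and limma called 0 (0 at an unadjusted p under 0.05; edgeR 0, DESeq2 0). Elane, neutrophil elastase, had 8.78, 44.3 and 135.8 normalized counts in BODIPY-low and 20, 68.8 and 249.2 in BODIPY-high libraries, with a limma adjusted p of 0.874. The gates overlapped, and in both of them library 1 had the lowest and library 3 the highest value of Elane and of the summed neutrophil markers.

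The other lysosomal enzymes also gave no limma calls. Among 7 other lysosomal proteases limma called 0 (1 at an unadjusted p under 0.05; edgeR 0, DESeq2 0), with a median log2 change of 0.08. Dpp7, a dipeptidyl peptidase, had 3347, 3423 and 3039 normalized counts in BODIPY-low and 3924, 4319 and 3933 in BODIPY-high libraries. The gates did not overlap, with a log2 change of 0.31 (SE 0.09) and a limma adjusted p of 0.209. Among 29 other hydrolases, such as glycosidases and lipases, limma called 0 (2 at an unadjusted p under 0.05; edgeR 0, DESeq2 0), with 16 positive and 13 negative log2 changes and a median of 0.01. Gla, alpha-galactosidase, had 329.1, 314.5 and 475.9 normalized counts in BODIPY-low and 522.5, 584.3 and 525.1 in BODIPY-high libraries, with a log2 change of 0.57 (SE 0.20) and a limma adjusted p of 0.316.

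The cathepsin genes outside the 10 were scarce except for Ctso, named after its values were seen. Ctso had 12330 ± 1301 normalized counts (SD, n = 3) in BODIPY-low and 11577 ± 2128 in BODIPY-high libraries. Its gates overlapped, with a log2 change of -0.10 and a limma adjusted p of 0.897. Of 12 listed, 4 were in the table and 3 were tested, of which limma called 0 (0 at an unadjusted p under 0.05; edgeR 0, DESeq2 0). Ctse, an aspartic protease, had 46.1, 105.2 and 130.6 normalized counts in BODIPY-low and 102.1, 118.7 and 228.1 in BODIPY-high libraries, with overlapping gates and a limma adjusted p of 0.71. Ctsg, a serine protease of neutrophil granules, had 0, 0 and 1 reads in BODIPY-low and 6, 3 and 4 reads in BODIPY-high libraries and was not tested.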

How the data were processed

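RNA was measured in 3 BODIPY-low and 3 BODIPY-high samples, with Smart-seq v4 amplification and Nextera XT libraries per the labels' protocols. Neither kit keeps strand. Per the series' design text and the submitters' processing notes, the authors used FastQC 0.11.4, STAR 2.5.3a with its gene counting, and DESeq2; the notes list mm9 and mm10, and the design text names mm10. Which annotation and which strand column they took is not given in the sources used here. Signal values as deposited by the authors are normalized counts: reads per gene over the library's size factor (0.911 to 1.09). All values were whole multiples of a step within 0.05 of a read, which returned the reads; in 2 BODIPY-high libraries the step was within 0.5% of 1. Names of 23 genes had become dates and 50 genes were at 0 everywhere; columns without a sample numbered 0. A count of 0 allows 3 reads, or 2.76 to 3.29 normalized counts. Intervals from reads cover counting error only, since reads carried no molecular identifiers. No 2 libraries of a gate agreed within sampling noise (chi-square per degree of freedom at least 30.6).

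Genes with at least 10 normalized counts in at least 3 libraries were tested with limma-trend 3.58.1 (R 4.3.3) in a two-sided test of the gate alone on log2(normalized count + 1); such fold changes understate those of low genes. The alternatives were a replicate block, edgeR 4.0.16 and DESeq2 1.42.0 on recovered reads, other pseudocounts (0.5 and 5), filters and scalings, and leaving out libraries. Deviations of same-numbered libraries correlated at 0.354, 0.244 and 0.363, all above 0.1, so the numbers pair the libraries in the data; no label says what they mark or that samples were separate pools, so p-values measure only their spread, which may be technical. Scripts were tested on simulated data. Gene positions and exon lengths are from GENCODE M21 (GRCm38) and promoters from RefSeq (GRCm38.p6). The members and gene lists were chosen with earlier results of these data known. Named genes were the 10 members, the gene of smallest p of each list without calls, and the 3 genes most correlated with the member of smallest p (mean of at least 50). For marker lists whose sums did not overlap between gates, the most abundant gene was named.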

Additional observations from a re-analysis of the deposited data

How the results depend on the processing

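Over 16 other settings (14 planned and 2 chosen after seeing the data), no cathepsin gene was called, and the smallest adjusted p was 0.0715 (Ctsb, DESeq2). Of 144 recomputed member results 133 kept the sign and 11, of Ctsd, Ctsz and Ctsh, did not. Ctsd had a log2 change of 0.00579 with equal library totals, 0.167 with libraries scaled to microglia markers (added), 0.0348 without both libraries of number 3 (added) and -0.0843 to 0.0965 with 1 library left out. Ctsz had 0.152, 0.0112 and -0.115 to 0.0641 under the last 3 of these. Ctsh had 0.0136 with microglia scaling, which moved the median of all genes from -0.004 to 0.180. Over all genes 259 were called higher and 3 lower; the replicate block gave 558 and 59, DESeq2 464 and 32, a filter of 50 gave 131 and 1, and leaving out both libraries of number 3 gave 117 and 0. Lower calls were 1 with edgeR, 1 with equal totals and 0 with microglia scaling. With 1 library left out, higher calls ran from 15 (without BODIPY-high library 2) to 271 and lower calls from 0 to 2; without BODIPY-high library 3 there were 59 higher calls, without BODIPY-low library 1 or 2 there were 135 or 117, and without BODIPY-high library 1 there were 169. The cause was not tested. Depth limited the reading of Ctsk, with 0 to 18 reads per library.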
